A study of Homo sapiens with 10 samples.

Results

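The genes described here encode 3 families of splicing factors: heterogeneous nuclear ribonucleoproteins (hnRNPs), serine/arginine-rich splicing factors (SRSFs) and subunits of splicing factors SF3A and SF3B. They were taken by symbol from a table of gene expression, as every entry named HNRNP, SRSF, SF3A or SF3B followed by a member's letters or number. Pseudogenes, whose names end in P and a number, were left out, and so were HNRNPH2 and HNRNPUL2, which share their loci with read-through genes. The rule found 56 entries with 44 symbols among 64940 genes. Of these, 40 had a mean of at least 1 TPM (the abundance of a gene's transcripts per length, scaled to the total of the library) over the 4 libraries and were tested: 19 hnRNP, 12 SRSF and 9 SF3 genes. The other 16 entries were listed at 0 in all 4 libraries. They are 13 entries of HNRNPCL1, HNRNPCL2, HNRNPCL3 and HNRNPCL4, relatives of HNRNPC, and 3 further entries for HNRNPH1, HNRNPL and HNRNPR, whose main entries were all expressed.

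The study asked how DAZL, an RNA-binding protein of germ cells, acts on microRNAs (miRNAs) and on the growth of human primordial germ cells. RNA sequencing was done on 2 groups of 2 libraries made from cells derived from H9, a human embryonic stem cell line. The oeDAZL group holds human primordial germ cell-like cells (hPGCLCs) that overexpressed DAZL. The control group was labelled wild type and described in the labels as cells that differentiated spontaneously, whereas the design text calls the wild-type cells PGCLCs. Overexpression and a difference in culture therefore cannot be told apart. The study's methods deliver DAZL or a control by lentivirus and collect the cells by sorting after treatment with bone morphogenetic proteins, and nothing states that the libraries of a group came from separate cultures. The p-values below then measure only the spread between these libraries, which may be technical. The miRNA libraries of the shLacZ, shDAZL_4 and shDAZL_6 groups were not analysed here.

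Pre-mRNA splicing joins exons where the spliceosome is assembled. SF3A and SF3B are parts of the U2 small nuclear ribonucleoprotein (snRNP), and SF3B1 holds the branch site of the intron. SR proteins bind exons through RNA recognition motifs and recruit the spliceosome through a domain rich in arginine and serine, whereas many hnRNPs bind silencers in exons and introns and oppose the use of nearby splice sites. Many genes of these families also limit their own mRNA through exons or introns that lead to nonsense-mediated decay, and a TPM per gene does not separate such transcripts.

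In control, DAZL was listed at 0 and 0.0333 TPM, compared with 102 and 101 TPM in oeDAZL, which matches the labels. Markers of PGCs differed widely in level. POU5F1, also a pluripotency gene, was at 13.6 and 10.6 TPM in control and at 22.4 and 20.4 TPM in oeDAZL. PDPN lay at 32.9 to 58.5 TPM and ALPL, at 45.1 and 46.7 TPM in oeDAZL, lay within the range of the control libraries. SOX17 lay at 2.52 to 3.35 TPM. NANOS3 was at 1.39 and 1.66 TPM in control and at 1.07 and 0.732 TPM in oeDAZL. NANOG stayed under the limit for testing at 0.432 to 0.813 TPM, and DDX4 was listed at 0 in all 4 libraries. TFAP2C, also expressed in amnion, lay at 44.3 to 53.9 TPM. In all, 7 of the 9 tested PGC markers had a log2 fold change below 0, as did 65.3% of all tested genes. Both oeDAZL libraries lay below both control libraries for 3 of the 9 and above them for 2. Over all tested genes these shares were 38.4% and 16.0%. Of the tested markers with an unadjusted limma P of at most 0.05, none of 9 PGC markers was lower and 2 were higher, whereas 15.2% of all tested genes were lower and 5.02% higher. The corresponding counts were 0 lower and 2 higher of 5 pluripotency markers, 4 lower and 1 higher of 11 mesoderm and mesenchyme markers, 4 lower and 1 higher of 9 amnion and trophoblast markers, 2 lower and 1 higher of 5 neural markers, and 1 lower and 0 higher of 6 endoderm markers. The summed level of the mesoderm and mesenchyme markers was 4486 and 4767 TPM in control and 4414 and 4372 TPM in oeDAZL. This sum joins opposite differences. Both oeDAZL libraries lay below control for 7 of the 11 tested markers and above it for 2, HAND1 and VIM. The sum of the amnion and trophoblast markers was 2701 and 2474 TPM in control and 2471 and 2520 TPM in oeDAZL. Of the 9 tested, 5 lay below control and 2, GATA2 and KRT7, above it. The background shares are the 38.4% and 16.0% given above. Neural markers summed to 455 and 589 TPM in control and 698 and 644 TPM in oeDAZL. Most of the neural sum was TUBB3 and NES, the latter at 253 and 347 TPM in control and 440 and 409 TPM in oeDAZL. PAX6, OTX2 and MAP2 instead had both oeDAZL libraries below both control libraries. Endoderm markers summed to 257 and 152 TPM in control and 155 and 198 TPM in oeDAZL. PGC markers summed to 162 and 177 TPM in control and 185 and 184 TPM in oeDAZL, and pluripotency markers to 581 and 535 TPM in control and 535 and 514 TPM in oeDAZL. LIN28A held most of the pluripotency sum. Of all listed markers, only the mesenchyme marker COL3A1 had a limma adjusted p under 0.05 (0.0344). It was at 583 and 479 TPM in control and 224 and 220 TPM in oeDAZL. The part of these shifts between cell types in the results below was not tested. Genes of mitochondrial DNA took 12.6 to 14.1% of TPM, and 26695 to 28019 genes were above 0. Read depth cannot be recovered from TPM and is unknown here.

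Because the study links DAZL to miRNAs, the 3′UTRs of the splicing factor genes were searched for sites of 5 of the miRNAs that the study names. Another, miR-10b-5p, was not analysed here. Their mature sequences, as RefSeq gives them for GRCh38.p14, are printed with the seed (bases 2 to 8) in capitals.
let-7a-5p: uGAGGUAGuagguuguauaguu
miR-21-5p: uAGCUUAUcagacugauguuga
miR-22-3p: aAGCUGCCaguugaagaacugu
miR-125b-5p: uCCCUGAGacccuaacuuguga
miR-199a-3p: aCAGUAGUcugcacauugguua
No 2 of these seeds are the same. A site of 8 bases is the complement of the seed followed by A, read on the sense strand of the canonical transcript (GENCODE 44, hg38). The site of let-7a-5p is CTACCTCA, which 4.37% of 13041 tested genes hold and none of the 40 splicing factor genes. The site of miR-125b-5p is CTCAGGGA, held by 5.85% of tested genes and again by none of the 40. The sites of miR-21-5p (ATAAGCTA), miR-22-3p (GGCAGCTA) and miR-199a-3p (ACTACTGA) are held by 2.78%, 2.27% and 2.87% of tested genes and by a single splicing factor gene each. These are SF3B3, SRSF10 and SRSF12, whose sites are printed in capitals within 30 bases of their 3′UTRs.
SF3B3, chr16:70576535-70576564, plus strand: agtatatgtgtATAAGCTAgtaacacgtga
SRSF10, chr1:23970925-23970954, minus strand: ttaatgttatgGGCAGCTAccaatttgtgg
SRSF12, chr6:89096898-89096927, minus strand: aattatgtggcACTACTGAaaatctaaagg
A match describes the letters only, and the absence of a match says nothing of other kinds of site. The search was added after the expression values had been seen. The expression of these 3 genes is given with their families: SF3B3 and SRSF10 overlapped between the groups, and SRSF12 was higher in oeDAZL.

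The splicing factor genes were abundant. Their mean TPM ran from 25.1 (HNRNPA1L2) to 1504 (HNRNPA1) with a median of 206, against a median of 15.6 TPM over the 16687 tested genes. In control, the 56 entries together took 1.11% of TPM in both libraries, and in oeDAZL 1.07% in both. Among hnRNPs, HNRNPA1, which binds silencers in exons and introns, was highest, followed by HNRNPH1, which binds runs of G, at 813 and 777 TPM in control and 768 and 765 TPM in oeDAZL. HNRNPK, which binds runs of C, followed at a mean of 738 TPM. The next 3 genes in order were HNRNPA2B1, HNRNPC and HNRNPM. Among SRSF genes, SRSF2 was highest, and SRSF5 followed at 322 and 318 TPM in control and 318 and 316 TPM in oeDAZL. SRSF8 and SRSF12 were the lowest, at means of 26.5 and 25.9 TPM. Among SF3 genes, SF3B1 (213 and 206 TPM in control, 196 and 207 TPM in oeDAZL) and SF3B2 (208 and 205 TPM, then 189 and 192 TPM) were highest, with SF3B1 above SF3B2 in each library, and SF3A1 and SF3B3, at means of 67.3 and 64.0 TPM, were lowest.

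**Figure D1:**
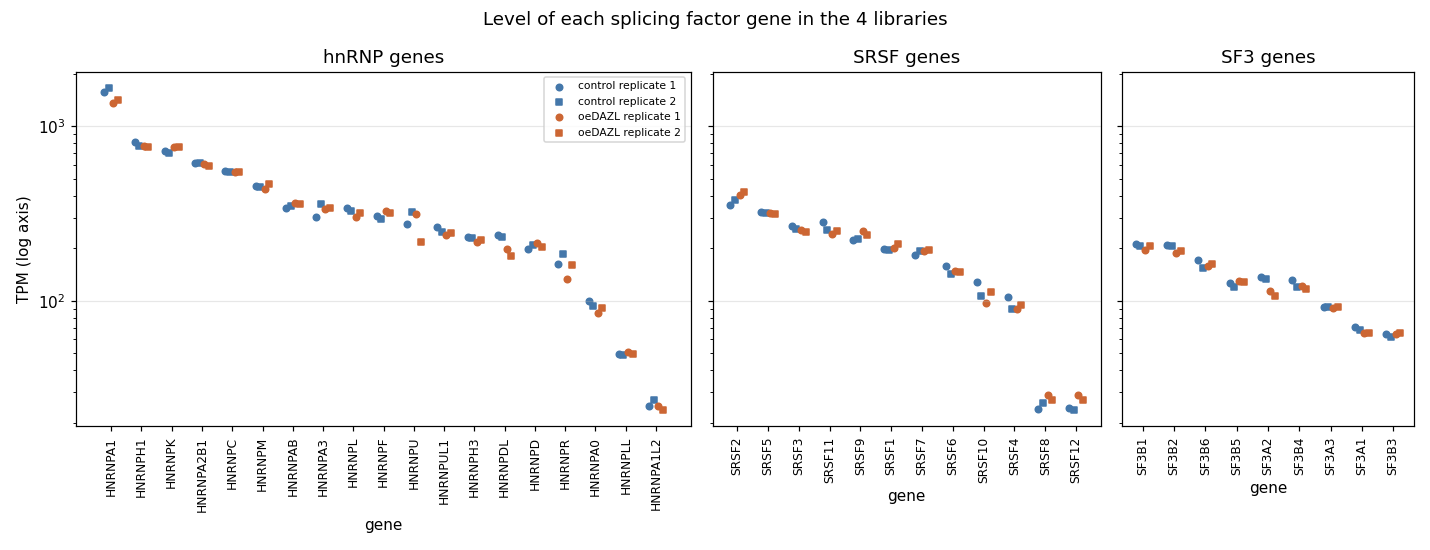
TPM (log axis) of the 40 tested splicing factor genes in each library, ordered by mean TPM within the hnRNP, SRSF and SF3 families. Circles and squares are replicates 1 and 2 of control (blue) and oeDAZL (orange). The mean levels span 25.1 to 1504 TPM, and the 4 libraries of a gene lie close together beside that span.

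The comparison of oeDAZL with control asks which splicing factor genes differ between the groups. Differences were small. On the log2(TPM + 1) scale they ran from -0.32 (HNRNPDL) to 0.21 (SRSF12), with a median of -0.036 and the middle 50% between -0.094 and 0.044. The median of all tested genes was -0.078, and their middle 50% lay between -0.24 and 0.056. Splicing factor genes are expressed more highly than most genes, and the 7371 tested genes with a mean of at least 20 TPM had a median of -0.037. At an unadjusted limma P of at most 0.05, 3 of the 40 genes were lower in oeDAZL (7.5%; HNRNPDL, SF3A2 and HNRNPA1), against 15.2% of all tested genes. Another 2 were higher (5.0%; SRSF2 and SRSF12), against 5.02%. Among the abundant genes, 17.2% were lower and 8.0% higher. Without control replicate 2, 9 of the 40 were lower, beside 3295 of the 16687 tested genes in the same fit. Without oeDAZL replicate 1 or 2 none of the 40 was higher, beside 357 and 527 of all tested genes. None of the 40 passed a Benjamini-Hochberg adjusted limma p of 0.05, for which the lowest value was 0.0962, and in all tested genes 0.0599% did. None reached the study's thresholds of a 2-fold change with a P of at most 0.05, against 0.689% of all tested genes. The study applied these thresholds with DESeq2 on read counts and called more genes. Here they were applied to limma on log2(TPM + 1), so the 2 sets of calls are not alike. In bulk samples, fewer cells of a type and less RNA per cell cannot be told apart.

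In limma's fit, the 95% confidence interval of the difference stayed within a 2-fold change in either direction for all 40 genes, and within a 1.5-fold change for 39. Over the 7371 abundant genes these counts were 7295 and 6691, and over the 16687 tested genes 14775 and 10231. The exception was HNRNPU, with an interval from -0.61 to 0.23. Replicates of these genes were close, with a median difference on the log2 scale of 0.059 between the control libraries and 0.046 between the oeDAZL libraries, compared with 0.14 and 0.10 over all tested genes and 0.097 and 0.063 over the abundant ones. Both oeDAZL libraries lay below both control libraries for 15 of the 40 genes (37.5%; background 38.4%) and above them for 11 (27.5%; background 16.0% of all tested genes and 21.7% of the abundant ones). With 2 libraries against 2, an exact permutation test of a single gene cannot give a p under 0.333.

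**Figure D2:**
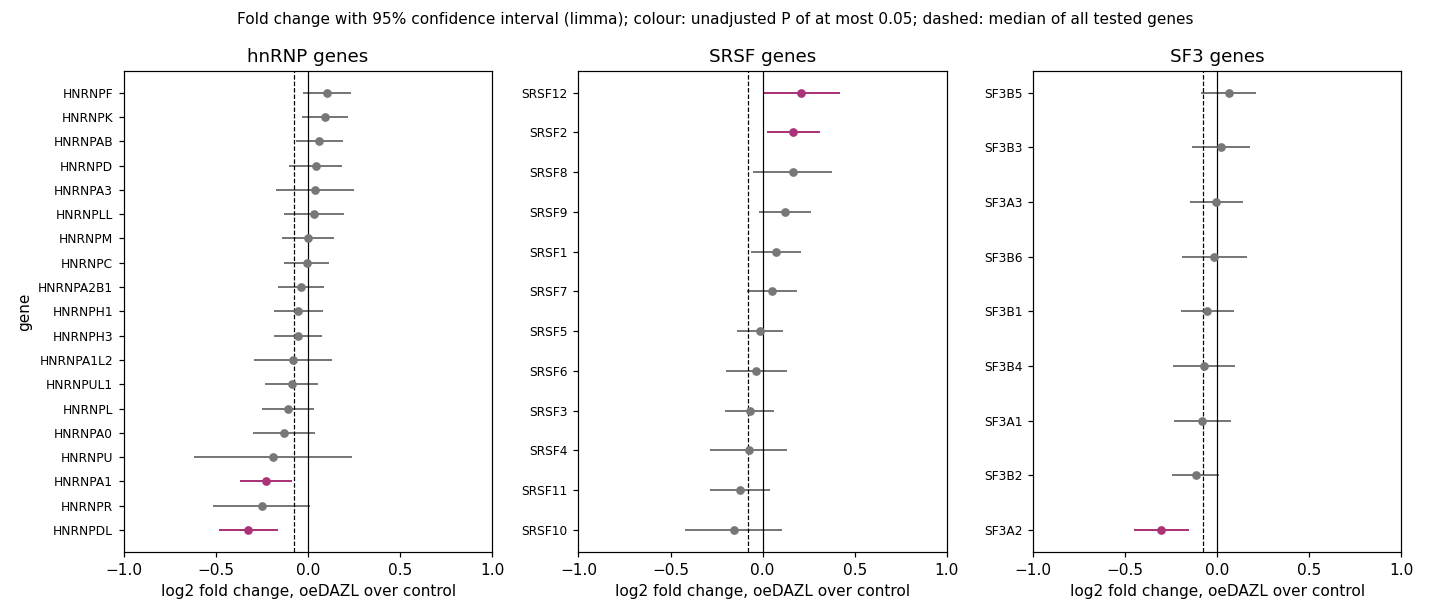
Log2 fold change of oeDAZL over control with its 95% confidence interval from limma, for the 19 hnRNP, 12 SRSF and 9 SF3 genes; genes with an unadjusted P of at most 0.05 are coloured, and the dashed line marks the median of all tested genes (-0.078). Estimates lie between -0.32 and 0.21, and the interval of HNRNPU is the widest.

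Of the 19 hnRNP genes, HNRNPDL and HNRNPA1 were lower (10.5%; background 15.2%) and none was higher (background 5.02%) at the unadjusted threshold. HNRNPDL (chr4:82422565-82430462, minus strand, hg38), a close relative of HNRNPD, was listed at 240 and 232 TPM in control and at 197 and 180 TPM in oeDAZL. Both oeDAZL libraries lay below both control libraries, with a log2 fold change of -0.32 (SE 0.064, limma adjusted p = 0.0962). HNRNPD itself, which binds AU-rich elements in mRNA and lies near HNRNPDL on the same strand, was at 199 and 208 TPM in control and at 215 and 204 TPM in oeDAZL, and its groups overlapped. The pseudogenes named after HNRNPDL were all listed at 0.

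HNRNPA1 (chr12:54280193-54287088, plus strand) was listed at 1583 and 1662 TPM in control and at 1358 and 1414 TPM in oeDAZL. The groups did not overlap, and the log2 fold change was -0.23 (SE 0.056, limma adjusted p = 0.123). The call did not hold with median-of-ratios scaling or without either oeDAZL library, where the value ran from -0.26 to -0.14. The level is uncertain, since only uniquely mapped reads were kept, which can lower genes with near-identical copies. The table names 84 pseudogenes after HNRNPA1, of which 38 were above 0 in at least 1 library, and together they summed to 228 and 231 TPM in control and 192 and 194 TPM in oeDAZL. Their sum was 14.1% of the level of HNRNPA1 in control, and its ratio of oeDAZL to control was 0.841, beside 0.854 for HNRNPA1. HNRNPA1P7 held the largest part, at 108 and 105 TPM in control and 84.9 and 88.1 TPM in oeDAZL. HNRNPA1L2, a copy of the gene that is annotated under its own name, was lower in level and overlapped between the groups, between 23.7 and 26.8 TPM.

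The remaining hnRNP genes did not pass the threshold. HNRNPR, a relative of SYNCRIP, was at 163 and 185 TPM in control and at 133 and 160 TPM in oeDAZL, with a log2 fold change of -0.25 (SE 0.11, limma adjusted p = 0.259). HNRNPU, a nuclear matrix protein that binds RNA and chromatin and was singled out after its values were seen, differed more within oeDAZL than between the groups. It was at 276 and 321 TPM in control and at 316 and 216 TPM in oeDAZL, and its log2 fold change of -0.19 was 0.084 without oeDAZL replicate 2 and -0.46 without oeDAZL replicate 1. HNRNPU overlaps COX20 on the other strand, and COX20 was at 15.2 and 15.5 TPM in control and at 24.3 and 24.4 TPM in oeDAZL. Since the use of strand is not stated, reads of overlapping genes cannot be told apart. An annotated gene overlaps on the other strand for 19 of the 40 genes and on the same strand for 11, HNRNPA1 and SRSF2 among the latter. In 9 hnRNP genes (47.4%; background 38.4%) both oeDAZL libraries were below control, and in HNRNPF, HNRNPK, HNRNPAB and HNRNPLL (21.1%; background 16.0%) both were above it. HNRNPF, which like HNRNPH1 binds runs of G, had the largest of these 4 values (0.10, limma adjusted p = 0.321). HNRNPM and HNRNPC, with values of 0.00026 and -0.0082, were the closest to 0.

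The SRSF genes had a median of 0.018, with 2 genes higher (16.7%; background 5.02%) and none lower (background 15.2%) at the unadjusted threshold. SRSF2 (chr17:76734115-76737333, minus strand), which binds exonic enhancers and marks nuclear speckles, was at 355 and 378 TPM in control and at 402 and 420 TPM in oeDAZL. Its groups did not overlap, and the log2 fold change was 0.17 (SE 0.057, limma adjusted p = 0.195). MFSD11, which overlaps SRSF2 on the other strand, was at 39.3 and 37.8 TPM in control and at 41.0 and 61.8 TPM in oeDAZL. SRSF12 (chr6:89095959-89118071, minus strand), a relative of SRSF10, was at 24.3 and 23.6 TPM in control and at 29.0 and 26.8 TPM in oeDAZL, a log2 fold change of 0.21 (SE 0.083, limma adjusted p = 0.234). Both its oeDAZL libraries lay above control. SRSF12 is the gene with the miR-199a-3p site printed above, and a link between that site and its level was not tested. Neither call held without limma's trend or without either oeDAZL library, that of SRSF2 was also lost without control replicate 1, and that of SRSF12 without either control library.

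SRSF8, a relative of SRSF2, was at 24.0 and 25.9 TPM in control and at 29.0 and 27.1 TPM in oeDAZL, with a log2 fold change of 0.16 (limma adjusted p = 0.343). SRSF1, SRSF7 and SRSF9 were also separated upward, so that 6 of the 12 SRSF genes lay above control in both oeDAZL libraries, against 16.0% of all tested genes and 21.7% of the abundant ones. SRSF3, SRSF5 and SRSF11 lay below it (25%; background 38.4%), and SRSF4, SRSF6 and SRSF10 overlapped. SRSF10, a splicing repressor that is dephosphorylated on heat shock, carries the miR-22-3p site and was given for that reason. Its libraries spread widely, at 128 and 107 TPM in control and at 97.6 and 112 TPM in oeDAZL.

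**Figure D3:**
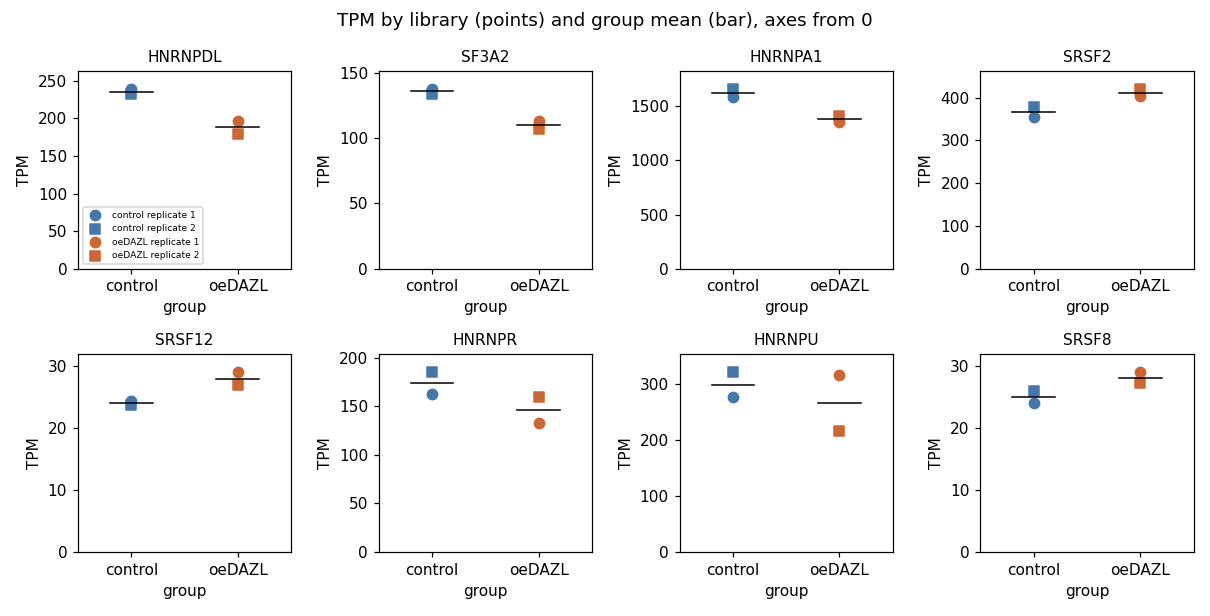
TPM in each library (points) and the group mean (bars) for the 5 genes with an unadjusted P of at most 0.05 (HNRNPDL, SF3A2, HNRNPA1, SRSF2, SRSF12) and for HNRNPR, HNRNPU and SRSF8, on linear axes from 0. The groups do not overlap for 7 of these genes, and in HNRNPU the oeDAZL libraries lie at 316 and 216 TPM on both sides of a control library.

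Among the SF3 genes, SF3A2 was lower (11.1%; background 15.2%) at the unadjusted threshold and none was higher (background 5.02%). SF3A2 (chr19:2236824-2248655, plus strand) encodes 1 of the 3 subunits of SF3A. It was at 138 and 134 TPM in control and at 113 and 106 TPM in oeDAZL. Both oeDAZL libraries were lower, with a log2 fold change of -0.30 (SE 0.059, limma adjusted p = 0.0962). SF3A1, at 70.6 and 67.8 TPM in control and 65.7 and 65.1 TPM in oeDAZL, had a value of -0.081 (limma adjusted p = 0.493), and SF3A3 was at 91.7 and 92.1 TPM in control and 90.6 and 92.6 TPM in oeDAZL. The neighbours of SF3A2 were given because reads may be shared with them. PLEKHJ1, which overlaps it on the other strand, was at 135 and 136 TPM in control and 140 and 144 TPM in oeDAZL. AMH, a hormone gene just downstream on the same strand that was chosen after its values were seen, was at 32.3 and 28.0 TPM in control and 19.5 and 20.1 TPM in oeDAZL.

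The 6 SF3B genes had values between -0.12 and 0.063, and none passed the threshold. SF3B2, at the lower end (limma adjusted p = 0.266), lay below control in both oeDAZL libraries (16.7%; background 38.4%). SF3B5 lay above it (16.7%; background 16.0%). SF3B1, SF3B3, SF3B4 and SF3B6 overlapped between the groups. SF3B3, which holds the miR-21-5p site, was at 64.8 and 62.2 TPM in control and at 64.1 and 64.9 TPM in oeDAZL.

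Summed over a family, hnRNP genes held 7587 and 7680 TPM in control and 7281 TPM in both oeDAZL libraries, a ratio of 0.954. Without HNRNPA1 the ratio was 0.981, with 6004 and 6018 TPM in control and 5923 and 5867 TPM in oeDAZL. The SRSF sums overlapped, at 2273 and 2214 TPM in control and 2260 and 2286 TPM in oeDAZL (ratio 1.01). The SF3 sums were 1215 and 1160 TPM in control and 1128 and 1136 TPM in oeDAZL (ratio 0.953). For the 3 SF3A genes they were 300 and 294 TPM in control and 269 and 264 TPM in oeDAZL. Most of that difference lay in SF3A2, with means of 136 TPM in control and 110 TPM in oeDAZL. The corresponding means were 69.2 and 65.4 TPM for SF3A1 and 91.9 and 91.6 TPM for SF3A3. With median-of-ratios scaling the ratios of the hnRNP and SF3 sums turned to 1.01 each, and that of the SRSF sums was 1.07.

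Ratios of genes within a library do not change when a whole library is multiplied by a factor. The pairs were chosen after the values were seen and describe unequal change only. HNRNPDL over HNRNPD was 1.20 and 1.12 in control and 0.918 and 0.879 in oeDAZL, so the order of the pair turned. SF3A2 over SF3A1 was 1.95 and 1.97 in control and 1.72 and 1.64 in oeDAZL, and SF3A2 over SF3A3 had a mean of 1.48 in control and 1.20 in oeDAZL. HNRNPA1 over HNRNPA2B1, another silencer-binding hnRNP, was 2.57 and 2.71 in control and 2.24 and 2.39 in oeDAZL. In each of these pairs the groups were apart. HNRNPK over HNRNPL, which binds CA repeats, was higher in oeDAZL (2.52 and 2.40) than in control (2.12 and 2.16). SRSF2 over SRSF1, a widely studied SR protein, was 1.79 and 1.94 in control and 1.99 in both oeDAZL libraries, and the groups lay close together.

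**Figure D4:**
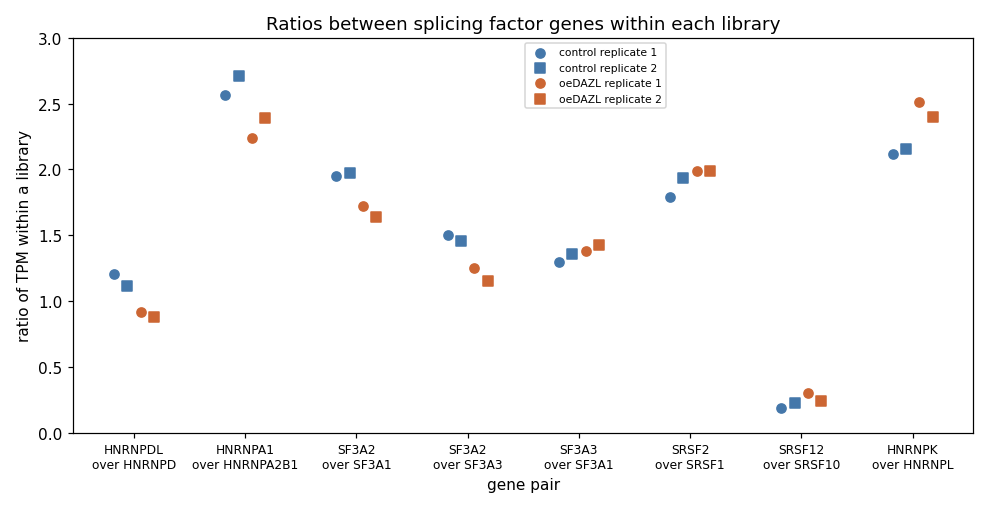
Ratio of TPM between 2 splicing factor genes within each library, on a linear axis from 0; circles and squares are replicates 1 and 2 of control (blue) and oeDAZL (orange). The ratios with HNRNPDL, HNRNPA1 or SF3A2 on top are lower in both oeDAZL libraries. Those of HNRNPK over HNRNPL, SF3A3 over SF3A1, SRSF2 over SRSF1 and SRSF12 over SRSF10 are higher.

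The sign of small differences depended on the scaling of the libraries. With median-of-ratios scaling the median of all tested genes moved from -0.078 to -0.0026, and that of the splicing factor genes from -0.036 to 0.048. The family medians were then 0.032 for hnRNP, 0.10 for SRSF and 0.031 for SF3 genes, compared with -0.052, 0.018 and -0.053 as deposited. At the unadjusted threshold, 2 genes were then lower (HNRNPDL and SF3A2) and 9 higher, the latter being SRSF1, SRSF2, SRSF8, SRSF9, SRSF12, HNRNPAB, HNRNPF, HNRNPK and SF3B5. The corresponding counts over all tested genes were 1528 lower and 1660 higher, compared with 2530 and 838 as deposited. With quantile normalization the median of the 40 genes was -0.029 and that of all tested genes 0.0061. HNRNPDL and SF3A2 had a P of at most 0.05 under each of 12 alternatives, with values from -0.39 to -0.24 and from -0.35 to -0.22.

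**Figure D5:**
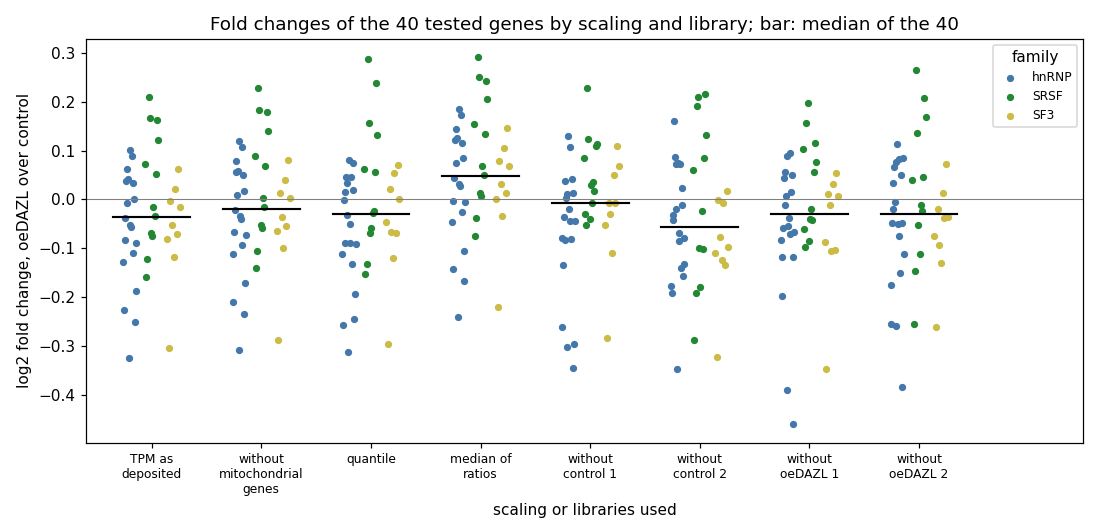
Log2 fold change of the 40 tested splicing factor genes (points, coloured by family) under 4 scalings and with each library left out; the bar is the median of the 40. The median is below 0 except with median-of-ratios scaling, where it is 0.048. SF3A2, HNRNPDL, HNRNPA1, HNRNPA0 and HNRNPL are among the genes that stay below 0 in every column.

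Other genes of splicing were described from 8 lists, which together hold 151 genes besides these families. Of the 141 that were tested, 13 (9.22%) were lower and 6 (4.26%) higher at an unadjusted limma P of at most 0.05, against backgrounds of 15.2% and 5.02%, and none passed adjustment. With median-of-ratios scaling the counts turned to 7 lower and 25 higher. The same scaling gave 1528 lower and 1660 higher among all 16687 tested genes. As deposited, the median of the 141 genes was -0.015. Among 23 tested entries for hnRNP-related RNA-binding proteins, PCBP3 was lower (log2 fold change -0.64), and TARDBP (0.25) and RALY (0.19) were higher. These entries list MATR3 more than once, and RALYL was not tested. Among 22 SR-related proteins and coactivators, SRRM2, a large scaffold of nuclear speckles, was at 451 and 396 TPM in control and 308 and 319 TPM in oeDAZL (log2 fold change -0.43, limma adjusted p = 0.0896). ACIN1 (-0.33) and SCAF1 (-0.23) were also lower, and LUC7L3 (0.21) was higher. Of 9 tested genes for SR protein kinases and nuclear import, the kinase gene CLK2 was lower (-0.38) and SRPK1, which phosphorylates SR proteins in the cytoplasm, was higher (0.19).

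Among the 17 tested U2 snRNP and branch site partners, SF1, which binds the branch site before the U2 snRNP does, was lower (-0.20) at 247 and 226 TPM in control and 206 and 205 TPM in oeDAZL. None of 18 U1 snRNP, Sm and LSm genes passed in either direction. Of 30 genes of the U4/U6.U5 tri-snRNP and catalytic core, 3 were lower, PRPF31 (-0.64), DHX38 (-0.24) and PRPF19 (-0.19), and 2 were higher, EFTUD2 (0.24) and SNRNP27 (0.21). Of 11 tested tissue-restricted regulators, RBFOX2 (-0.24) and ESRP2 (-0.21) were lower and none was higher. Of 15 genes of the exon junction complex and nonsense-mediated decay, SMG9 (-0.34) and SMG5 (-0.23) were lower and none was higher. The values of these named genes had an unadjusted limma P of at most 0.05, and the lowest adjusted p among them was that of SRRM2.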

How the data were processed

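RNA sequencing of 2 control and 2 oeDAZL libraries was used. The values that the authors deposited are TPM for each gene and library, with replicates kept apart. According to the methods, with versions from the submitters' processing notes, reads were checked with FastQC, trimmed with Trim Galore 0.6.4 and cutadapt 1.18, mapped to hg38 with HISAT2 2.1.0, kept where uniquely mapped, and quantified with StringTie 2.1.4. The methods give another version of Trim Galore, and the notes also name Bowtie 1.0.0. The annotation release and the use of strand are not given in the sources used here. Keeping only unique reads can lower genes with near-identical copies.

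Of 65003 entries, 45 for pseudoautosomal copies on chromosome Y and 18 repeats of a gene were left out. Values were taken as log2(TPM + 1), so fold changes of low genes are understated. Tests used limma 3.58.1 (R 4.3.3; eBayes with a trend, no covariate) on all 16687 genes whose mean TPM reached 1. A gene counts as lower or higher at an unadjusted P of at most 0.05, and p-values were adjusted by Benjamini-Hochberg over all tested genes. The procedure was tested on simulated data with a planted 2-fold change. That is larger than any difference of the splicing factor genes, so the simulation does not bear on changes as small as theirs. Because TPM gives no depth, precision was taken from the spread between libraries, and a value of 0 means only that a gene is listed at 0.

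The splicing factor genes, the 8 splicing lists and the 6 marker lists were chosen with earlier results of these data known, so their counts are descriptions and no p over a list is given. Values per library are given for genes with a P of at most 0.05, the 3 largest differences and 2 highest levels of each family, and of other genes, chosen after their values were seen, where a result turns on them. From each other list, genes with a P of at most 0.05 among its 3 largest differences and the gene with the highest level could be named. LUC7L3, PRPF19, SNRNP27 and ESRP2 were added after their values were seen, to complete the counts. Coordinates, 3′UTRs and neighbours came from GENCODE 44, which holds 44 of the 56 entries. A planned count of protein motifs was not run. Alternatives were another pseudocount and filters, 3 scalings, a replicate block, limma without trend, other thresholds and leaving out each library.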

Additional observations from a re-analysis of the deposited data

How the results depend on the processing

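Of the 5 splicing factor genes with a P of at most 0.05, HNRNPDL and SF3A2 stayed past it under all 12 alternatives of scaling, filter, pseudocount, fit and libraries. HNRNPA1 did so under 9, but not with median-of-ratios scaling or without either oeDAZL library. SRSF2 stayed past it under 8 and SRSF12 under 6; both lost it without the trend and without either oeDAZL library, among others. No splicing factor gene had an adjusted p under 0.05 in any of these, and the cause of the changes below was not tested. Where a library was left out, the lone library of its group was assumed to vary like the other group.

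The number of lower splicing factor genes (3) was 3 to 9 when a library was left out, with 9 without control replicate 2, where HNRNPA0, HNRNPUL1, SF3B2, SRSF4, SRSF10 and SRSF11 also passed. It was 0 with an adjusted p or a 2-fold change. The number of higher ones (2) was 9 under median-of-ratios scaling, 4 under quantile normalization, 0 without the trend, 0 with an adjusted p and 0 with a 2-fold change, and 0 to 2 when a library was left out, with 0 without either oeDAZL replicate. Over all tested genes, 2530 were lower: 1528 under median-of-ratios scaling, 1514 under quantile normalization, 1251 at a mean of at least 20 TPM (an alternative chosen after seeing the data, with fewer genes tested), 6 with an adjusted p, 94 with a 2-fold change and 1226 to 3295 when a library was left out. The 838 higher genes became 1660, 1402, 4 (adjusted p), 21 (2-fold) and 357 to 1341, respectively. Other splicing genes, 13 lower and 6 higher, became 7 and 25 with median-of-ratios scaling, 6 and 0 without the trend, 12 higher with quantile normalization, and 4 to 24 lower and 5 to 10 higher when a library was left out.

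Differences between replicates correlated at -0.104 between the groups. With 2 pairs only, this value cannot decide whether the replicate numbers pair the libraries. With the replicate block, 4 splicing factor genes were lower (HNRNPR added) and 1 was higher (SRSF12 lost), and 2102 of all tested genes were lower and 670 higher. With the pairing crossed, an alternative chosen after seeing the data, 6 and 2 splicing factor genes and 2957 and 1060 of all tested genes were lower and higher.

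Median log2 fold changes of oeDAZL over control turned their sign under median-of-ratios scaling for the hnRNP, SF3 and combined splicing factor genes. For the splicing factor genes, -0.036 became 0.048 with median-of-ratios scaling and -0.019 with TPM rescaled without mitochondrial genes (-0.056 to -0.0070 without a library). For hnRNP genes, -0.052 became 0.032 and -0.035 (-0.055 to -0.042). For SRSF genes, 0.018 became 0.10 with median-of-ratios scaling, and for SF3 genes -0.053 became 0.031 (-0.098 to -0.0070 without a library). For all tested genes, -0.078 became -0.051 with no filter, -0.057 at a mean of at least 5 TPM, -0.0026 with median-of-ratios scaling and 0.0061 with quantile normalization (-0.099 to -0.058 without a library). The ratio of summed TPM became 1.01 for hnRNP, 1.07 for SRSF and 1.01 for SF3 genes with median-of-ratios scaling, and 0.965 for hnRNP genes without mitochondrial genes.

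Single genes also changed sign. With median-of-ratios scaling these were HNRNPA2B1 (0.045), HNRNPC (0.076), HNRNPH1 (0.032), HNRNPH3 (0.027), SF3A1 (0.0019), SF3A3 (0.079), SF3B1 (0.031), SF3B4 (0.013), SF3B6 (0.068), SRSF3 (0.014), SRSF4 (0.0078), SRSF5 (0.069) and SRSF6 (0.050). Without mitochondrial genes they were HNRNPC (0.0090), SF3A3 (0.013), SF3B6 (0.0022) and SRSF5 (0.0022), and with quantile normalization SF3A3 (0.021) and SF3B6 (0.0019). When a library was left out, the values ran from -0.083 to 0.16 for HNRNPA3, -0.019 to 0.0027 for HNRNPC, -0.049 to 0.049 for HNRNPM, -0.46 to 0.084 for HNRNPU, -0.020 to 0.012 for SF3A3, -0.0073 to 0.051 for SF3B3, -0.098 to 0.068 for SF3B6, -0.18 to 0.030 for SRSF4 and -0.10 to 0.035 for SRSF6.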
